A study of Mus musculus with 2 samples.

Results

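The Mir181 family of the mouse comprises 6 microRNA (miRNA) genes, Mir181a-1, Mir181a-2, Mir181b-1, Mir181b-2, Mir181c and Mir181d, in 3 genomic clusters of 2 genes. The members were taken by symbol from the genome annotation, and all 6 were found among the 1973 miRNA genes of the count tables. The study sequenced small RNA from the limbs of B6NCrl mouse embryos of both sexes at embryonic day 10.5, when the limb is a bud of mesenchyme under a layer of ectoderm. There was 1 group of 2 biological replicates, with limbs pooled from 69 embryos in replicate 1 and from 51 embryos in replicate 2. The labels name no treatment, mutation or contrast, and limb tissue holds every cell type of the bud.

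A miRNA gene is transcribed into a hairpin whose 5′ arm (5p) and 3′ arm (3p) can each be cut out as a mature RNA of little more than 20 bases. The mature RNA guides Argonaute proteins to messenger RNAs that pair with its seed, bases 2 to 8, and lowers their stability or translation. The miR-181 family is best known from lymphocytes, where miR-181a raises the sensitivity of T cell receptor signalling by lowering phosphatases, and from differentiating myoblasts, where miR-181 lowers the homeobox protein Hox-A11. Family members are also well studied in neurons and in vessels.

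The 5p arms are shown first because they define the family and its 2 kinds of member. Capitals mark the seed, and the sequences are those of RefSeq on GRCm38.p6.
miR-181a-5p: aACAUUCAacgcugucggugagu
miR-181b-5p: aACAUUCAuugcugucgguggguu
miR-181c-5p: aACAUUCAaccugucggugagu
miR-181d-5p: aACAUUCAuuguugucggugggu
All 4 of these 5p arms carry the same seed, and no mature sequence of another gene in the RefSeq table carried it. Counting positions from 1 at the 5′ end and writing the first-named arm's base first, miR-181a-5p and miR-181b-5p differed by A9U, C10U and A21G, and miR-181b-5p and miR-181d-5p by C12U within their shared length. The arms of Mir181a and Mir181c were separated by an edit distance of 1, with 23 and 22 bases, and their letters first departed from each other at position 11. The family therefore has an a and c pair and a b and d pair of closely similar 5p arms.

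miR-181a-5p and miR-181b-5p are each encoded at 2 loci, on chromosomes 1 and 2, whereas miR-181c-5p and miR-181d-5p each come from 1 locus. This matters for the counts, because the tables hold reads mapped to several loci in a row of their own. From that layout it was inferred that the genes hold uniquely placed reads and that a read fitting several loci equally well is counted at none of them. The settings themselves were not given in the sources used here. The stretches below give the 5p arm of each 2-locus form with the next 6 bases of its hairpin, and capitals mark the positions at which the loci of a form differ.
Mir181a-1: aacauucaacgcugucggugaguuuggAa
Mir181a-2: aacauucaacgcugucggugaguuuggGa
Mir181b-1: aacauucauugcugucgguggguuGAaCug
Mir181b-2: aacauucauugcugucgguggguuUGaAug
From the 5′ end of the arm, the loci of Mir181a shared every base up to the one before position 28, which lies 5 bases past the 23-base mature arm. The loci of Mir181b departed from each other at position 25, the first base past the 24-base mature arm. A read that ends with miR-181a-5p or miR-181b-5p as annotated is thus found at both loci of its form. A miR-181b-5p read that holds the next base of its hairpin is found at 1 of them. That base is G at Mir181b-1 and U at Mir181b-2, and whether it was copied from the hairpin in each read was not measured.

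The 3p arms are shown because, by exact match, they tell all loci of the family apart. Capitals again mark the seed.
miR-181a-1-3p: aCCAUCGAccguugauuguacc
miR-181a-2-3p: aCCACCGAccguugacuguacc
miR-181b-1-3p: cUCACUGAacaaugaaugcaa
miR-181b-2-3p: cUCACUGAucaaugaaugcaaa
miR-181c-3p: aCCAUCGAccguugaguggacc
miR-181d-3p: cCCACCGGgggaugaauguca
The 3p arms had 4 different seeds, of which miR-181a-1-3p shared its seed with miR-181c-3p, and miR-181b-1-3p with miR-181b-2-3p. miR-181a-1-3p and miR-181a-2-3p differed by U5C and U16C, and the first of these lies within the seed. miR-181b-1-3p and miR-181b-2-3p differed by A9U within their shared length. By exact match, each of the 6 arms was told apart from every other hairpin within its first 16 bases. So were the 5p arms of Mir181c and Mir181d. With 1 mismatch allowed, miR-181b-1-3p and miR-181b-2-3p were told apart only at 22 bases, which is past the end of the 21-base miR-181b-1-3p. The 5p arm of Mir181d was then told apart only at 26 bases, past its 23-base mature arm. The exact lengths compare a read with the 1005 mouse hairpins of the RefSeq table and with the mature arms of Mir181c, whose hairpin was not available. The lengths with 1 mismatch compare it with the other Mir181 genes only. Both start from a shortest length of 15 bases, and neither covers the whole genome. The tables count reads per hairpin gene, so the shares of the 5p and 3p arms in a count were not measured.

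**Figure D1:**
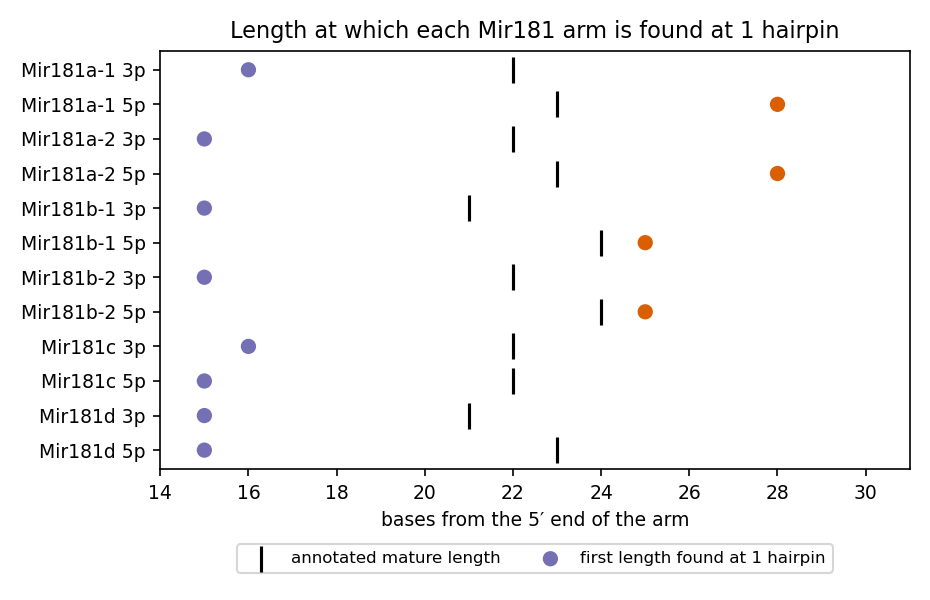
For each arm of the Mir181 genes, the dot gives the number of bases from the arm's 5′ end (horizontal axis) at which the sequence is first found at 1 hairpin, from a shortest length of 15, and the black tick gives the annotated length of the mature arm. Orange dots, right of their ticks, mark the 5p arms of Mir181a-1 and Mir181a-2 (28 bases) and of Mir181b-1 and Mir181b-2 (25 bases). The other 8 arms, in purple, lie at 15 or 16 bases. Matches are exact, and the mature arms of Mir181c stand in for its hairpin, which was not available.

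The clusters lie on chromosomes 1, 2 and 8 of GRCm38, the assembly also called mm10. Mir181a-1 (137966455 to 137966541, plus strand) lies in an intron of the noncoding gene Gm4258, and Mir181b-1 (137966639 to 137966718) lies 97 bases further on, inside an exon of A430106G13Rik, a long noncoding RNA gene that also overlaps the end of Mir181a-1. Mir181a-2 (38852735 to 38852810, plus strand) and Mir181b-2 (38853830 to 38853918) are separated by 1019 bases on chromosome 2. No annotated gene on their own strand spans them, and both lie opposite an intron of Nr6a1, which encodes an orphan nuclear receptor of the early embryo. Mir181b-2 also lies opposite an exon of the unclassified transcript Gm44144. Mir181c (84178873 to 84178961) and Mir181d (84178716 to 84178787) lie on the minus strand of chromosome 8, 85 bases apart, in an intron of Nanos3, an RNA-binding protein of germ cells.

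Sense counts in genes came to 3581672 in replicate 1 and 3576482 in replicate 2, and levels are given as counts per 1000000 of these totals (CPM). Reads mapped to several loci, which could hold the 5p arms of Mir181a and Mir181b, numbered 2202818 and 1831161, or 32.3% and 31.2% of the mapped reads. The mesenchymal marker list was present in full, with 7 of 7 miRNA genes at 26453 ± 3202 CPM (SD, n = 2). So was the Hox cluster list, with 6 of 6 genes at 178639 ± 12067 CPM (SD, n = 2). The epithelial, endothelial and erythroid lists were present in full as well. All lists were chosen with earlier results of these data known, so their presence is a description only. Detection required 10 or more counts in each library, which all 6 Mir181 genes reached, as did 348 (17.6%) of all genes. No antisense count was found at any of the 6. A two-sided exact sign-flip test on 2 libraries cannot give a p below 0.5, so levels are given with their SD and no p-value. Mature arms of the family are of similar length, 21 to 24 bases, and the levels of different genes are compared per gene. How evenly the libraries captured different sequences was not measured, so levels of different genes are read counts and not amounts of RNA.

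The Mir181 genes together held 1.29% ± 0.298 of all sense counts (SD, n = 2), and the chromosome 8 cluster of single-locus forms held most of them. The family had 38571 counts in replicate 1 and 53583 in replicate 2, or 10769 and 14982 CPM. When genes were grouped by the number in their symbol, Mir181 was in place 15 of 853 such groups by mean CPM. That place was not separated from the next one, Mir106, at 12874 ± 538 CPM against 12876 ± 2979 CPM for Mir181. The Mir181c/d cluster contributed 66.5% ± 1.12 of the family's counts, Mir181a-2/b-2 19.7% ± 1.53 and Mir181a-1/b-1 13.8% ± 0.413 (SD, n = 2). These shares cover uniquely placed reads, and reads of the 5p arms common to chromosomes 1 and 2 are not among them.

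Mir181d had the highest level of the family, with 14102 counts in replicate 1 and 17897 in replicate 2. This corresponded to 3937 and 5004 CPM, with a mean of 4471 ± 754 CPM (SD, n = 2), and placed it 39 among all genes. Mir181c, its neighbour in the same intron of Nanos3, had 11847 and 17303 counts, which are 3308 and 4838 CPM, with a mean of 4073 ± 1082 CPM and place 45. The values of the 2 genes overlapped between libraries. Mir181d was 1.19-fold above Mir181c in replicate 1 and 1.03-fold above it in replicate 2, log2 ratios of 0.25 (95% counting interval 0.22 to 0.29) and 0.05 (0.02 to 0.08), a mean of 0.15 ± 0.14 (SD, n = 2). Both counting intervals lay above 0, but the mean ratio was little larger than the spread between the libraries.

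Mir181b-2 was the highest of the 2-locus genes. It had 5139 counts in replicate 1 and 9606 in replicate 2, corresponding to 1435 and 2686 CPM, and a mean of 2060 ± 885 CPM at place 62. Its highest value was below the lower value of Mir181c, which was 2.31-fold and 1.80-fold above it in the 2 libraries. Mir181a-1 had 5264 and 6979 counts, or 1470 and 1951 CPM, with a mean of 1711 ± 341 CPM at place 69. The order of Mir181b-2 and Mir181a-1 was not settled: their log2 ratio was -0.03 (-0.09 to 0.02) in replicate 1 and 0.46 (0.42 to 0.51) in replicate 2.

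Mir181a-2 and Mir181b-1 had the lowest levels, each as a partner of one of the genes just described. Mir181a-2 had 2042 and 1531 counts, 570 and 428 CPM, with a mean of 499 ± 100.4 CPM at place 123. Its values did not overlap those of Mir181a-1. Mir181b-1 had 177 counts (95% Poisson interval 152 to 205) and 267 counts (236 to 301), which are 49.4 and 74.7 CPM. With a mean of 62.0 ± 17.8 CPM it was in place 213 of the 1973 genes and contributed 0.479% ± 0.0279 of the family's counts (SD, n = 2). It lay below every value of the other 5 members.

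**Figure D2:**
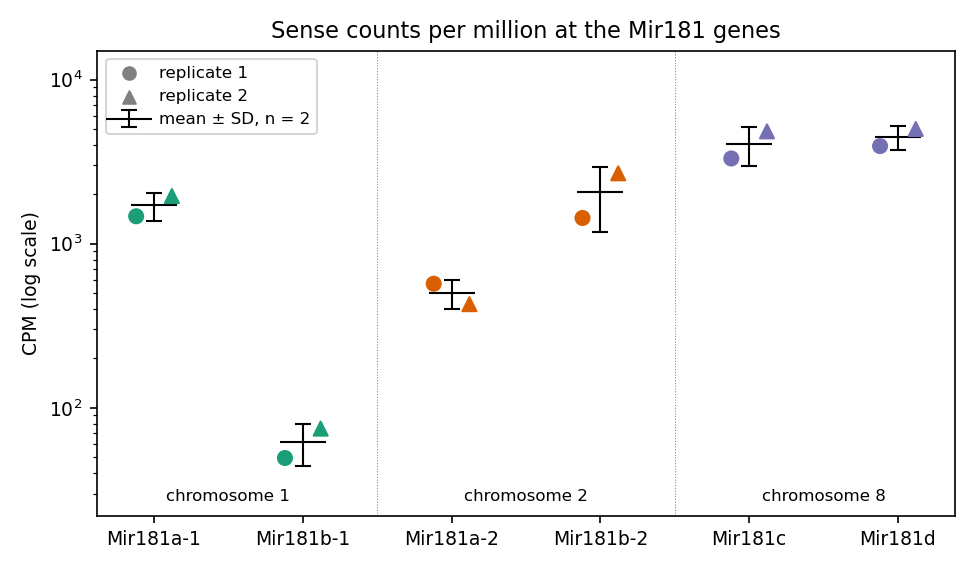
Sense CPM (vertical log axis) of the 6 Mir181 genes, coloured by cluster, with replicate 1 as circles, replicate 2 as triangles, and the mean ± SD of the 2 libraries in black. Mir181c and Mir181d lie close together near the top, between 3308 and 5004 CPM, while Mir181b-1 lies at 49.4 and 74.7 CPM, far below its cluster partner Mir181a-1.

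Partners of a cluster ranged from nearly equal to far apart. Mir181a-1 was 29.6-fold above Mir181b-1 in replicate 1 and 26.0-fold in replicate 2, a log2 ratio of 4.79 ± 0.13 (SD, n = 2). In the chromosome 2 cluster the order of the forms was the opposite, since Mir181b-2 was above Mir181a-2, by 2.52-fold in replicate 1 and 6.27-fold in replicate 2 (log2 ratio 1.99 ± 0.93). The ratio of the chromosome 2 partners thus differed 2.49-fold between the libraries, with counting intervals of 1.26 to 1.41 and 2.57 to 2.73 on the log2 scale that did not meet. The ratio of the other 2 pairs of partners differed less, by 0.18 on the log2 scale for Mir181a-1 and Mir181b-1 and by 0.20 for Mir181c and Mir181d. The 5p arm is found at 1 locus only from 28 bases for Mir181a and from 25 for Mir181b. Partners on chromosomes 1 and 2 may thus lose reads unequally, and the loss at each was not measured.

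These ratios were set beside all other consecutive miRNA genes on the same strand at most 10 kb apart, a comparison chosen after the values were seen. Of the 76 such pairs with at least 100 counts on average in both genes, 5 were closer to equal than Mir181c and Mir181d, and 17 were further apart than Mir181a-1 and Mir181b-1. The median distance from equality in these pairs was 2.48 on the log2 scale. The change in ratio between libraries had a median of 0.35 on the same scale, and 2 of 76 pairs changed more than Mir181a-2 and Mir181b-2, at 1.32. Pairs share genes and several share a transcript, so these are descriptions and not independent cases. Some pairs also hold a gene whose mature sequence is encoded at another locus, and their ratios likewise compare uniquely placed reads.

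The clusters stood in the same order in both libraries. Mir181c/d totalled 8544 ± 1836 CPM (7245 in replicate 1 and 9842 in replicate 2), Mir181a-2/b-2 2559 ± 784 CPM (2005 and 3114) and Mir181a-1/b-1 1773 ± 358 CPM (1519 and 2026). Mir181c/d was 4.77-fold and 4.86-fold above Mir181a-1/b-1, a log2 ratio of 2.27 ± 0.02, and 3.61-fold and 3.16-fold above Mir181a-2/b-2, a log2 ratio of 1.76 ± 0.14 (SD, n = 2). Both differences were larger than the spread between the libraries. They compare uniquely placed reads and do not measure the output of mature RNA per cluster. The annotated 5p arms of Mir181a and Mir181b are each found at 2 loci, and those of Mir181c and Mir181d at 1. The chromosome 2 cluster was above the chromosome 1 cluster by 1.32-fold and 1.54-fold (log2 ratio 0.51 ± 0.16), although their CPM values overlapped between libraries.

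**Figure D3:**
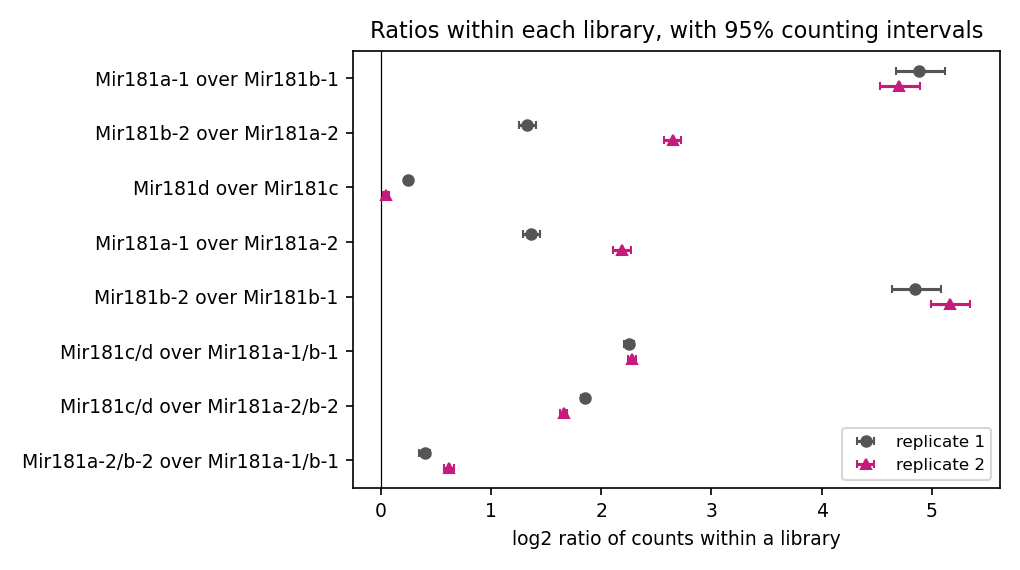
Log2 ratios of counts within a library (horizontal axis) for partners of a cluster, for the loci of a form and for whole clusters, with replicate 1 in grey circles, replicate 2 in pink triangles and bars for the 95% counting interval. The ratio of Mir181b-2 to Mir181a-2 lies at 1.33 in replicate 1 and 2.65 in replicate 2, whereas Mir181c/d over Mir181a-1/b-1 lies at 2.25 and 2.28.

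The single-locus forms stood 2.06-fold above all 4 loci of the 2-locus forms together in replicate 1 and 1.91-fold in replicate 2, a log2 ratio of 0.99 ± 0.07 (SD, n = 2). Since reads of an annotated miR-181a-5p or miR-181b-5p fit a locus on each of 2 chromosomes, this ratio compares uniquely placed reads and not the mature RNAs. Within the 2-locus forms, the loci were unequal and in opposite order: Mir181a-1 held 72.1% and 82.0% of the Mir181a counts, and Mir181b-2 held 96.7% and 97.3% of the Mir181b counts. Mir181b-2 was 28.9-fold and 35.8-fold above Mir181b-1, and Mir181a-1 was 2.58-fold and 4.56-fold above Mir181a-2. These shares and folds follow where reads were placed, and the locus that made each read was not measured. Summed over loci, Mir181b was below Mir181a in replicate 1 (log2 ratio -0.46) and above it in replicate 2 (0.21), so their order was not settled.

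Beside other miRNAs encoded at more than 1 locus, Mir181b-2, Mir181a-1 and Mir181a-2 were at the high end and Mir181b-1 was near the middle. Of 44 loci of 23 such miRNAs found in the tables, 32 were detected. The median level was 24.2 CPM over all 44 loci and 55.4 CPM over the 32 detected ones. Among the 44 loci, 1 lay above Mir181b-2, 3 above Mir181a-1, 5 above Mir181a-2 and 14 above Mir181b-1. The 4 highest were Mir92-1 at 9144 ± 4304 CPM, Mir196a-2 at 1965 ± 292, Mir16-1 at 1842 ± 305 and Mir125b-1 at 991 ± 429 CPM (SD, n = 2). An uneven split was common: over the 16 miRNAs with 2 or more loci in the tables and at least 10 counts in both libraries, the leading locus held a median of 85.3% of the counts, from 55.9% to 99.7%. The 97.0% at Mir181b-2 was surpassed by 2 of these 16, and the 77.0% at Mir181a-1 by 12. All these loci share mature sequence with another locus, and their counts carry the same limit.

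**Figure D4:**
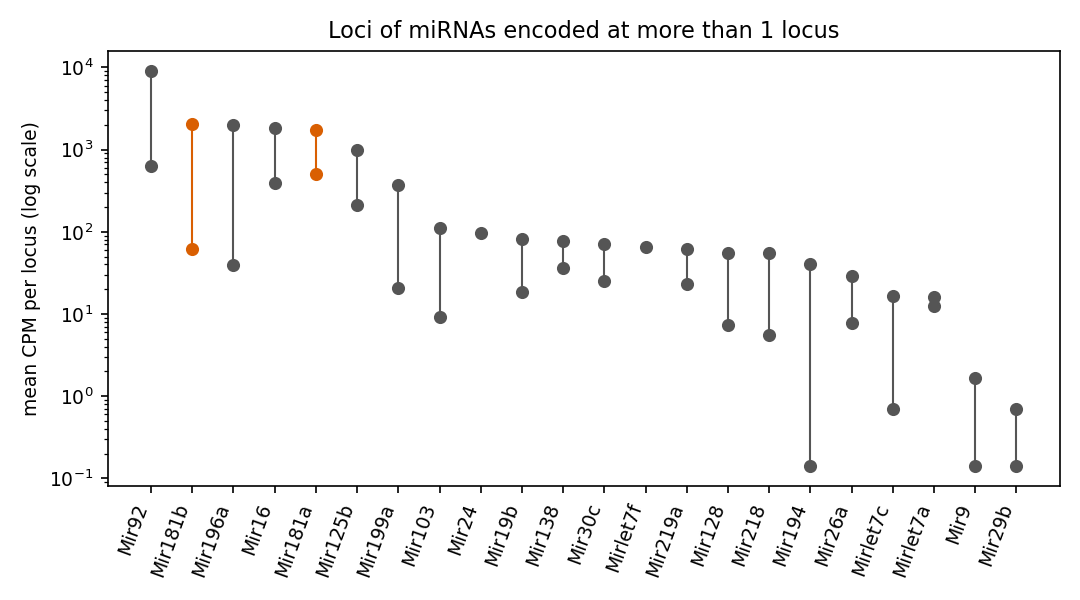
Mean CPM of the libraries (vertical log axis) at each locus of miRNAs encoded at more than 1 locus, with the loci of a miRNA joined by a line, Mir181a and Mir181b in orange, and loci at 0 not drawn. The upper loci of Mir181b (2060 CPM) and Mir181a (1711 CPM) lie among the highest loci drawn.

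All members but Mir181a-2 were higher in replicate 2 than in replicate 1. The log2 ratio of replicate 2 to replicate 1 was 0.90 (0.86 to 0.95) for Mir181b-2, 0.59 (0.32 to 0.88) for Mir181b-1, 0.55 (0.51 to 0.58) for Mir181c, 0.41 (0.36 to 0.46) for Mir181a-1 and 0.35 (0.31 to 0.38) for Mir181d. For Mir181a-2 it was -0.41 (-0.51 to -0.32). The intervals cover counting error and not the difference between pools of embryos, so these values have no replicate check. Among the 250 genes that averaged 100 or more counts, 83 (33.2%) had a log2 ratio above 0, the median was -0.27 and the SD was 0.66. The members' median was 0.48. Past 2-fold lay 0 of 6 members and 27 (10.8%) of all genes. In replicate 2, 3 genes (1.2%) were higher and 24 (9.6%) lower by this rule.

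The values depended on the scaling, since edgeR's TMM factors shifted all ratios by 0.28 and brought the median of all genes to 0.01. With TMM the genes past 2-fold were 6 higher and 14 lower in replicate 2, Mir181b-2 passed at 1.19, and Mir181a-2 remained below 0 at -0.13. Relative to the median of all genes, Mir181b-2 lay 1.18 higher, Mir181c 0.82 higher and Mir181d 0.62 higher on the log2 scale, and Mir181a-2 differed from it by -0.14. With scaling by total counts, each cluster as a whole was higher in replicate 2. The log2 ratios were 0.42 (0.36 to 0.47) for Mir181a-1/b-1, 0.64 (0.59 to 0.68) for Mir181a-2/b-2 and 0.44 (0.42 to 0.47) for Mir181c/d. The counting interval of Mir181a-2/b-2 met neither of the others, and its total joins partners that went opposite ways (0.90 and -0.41). Of the reads, 32.3% were unmapped in replicate 1 and 18.6% in replicate 2, and the part of this in the ratios was not tested.

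**Figure D5:**
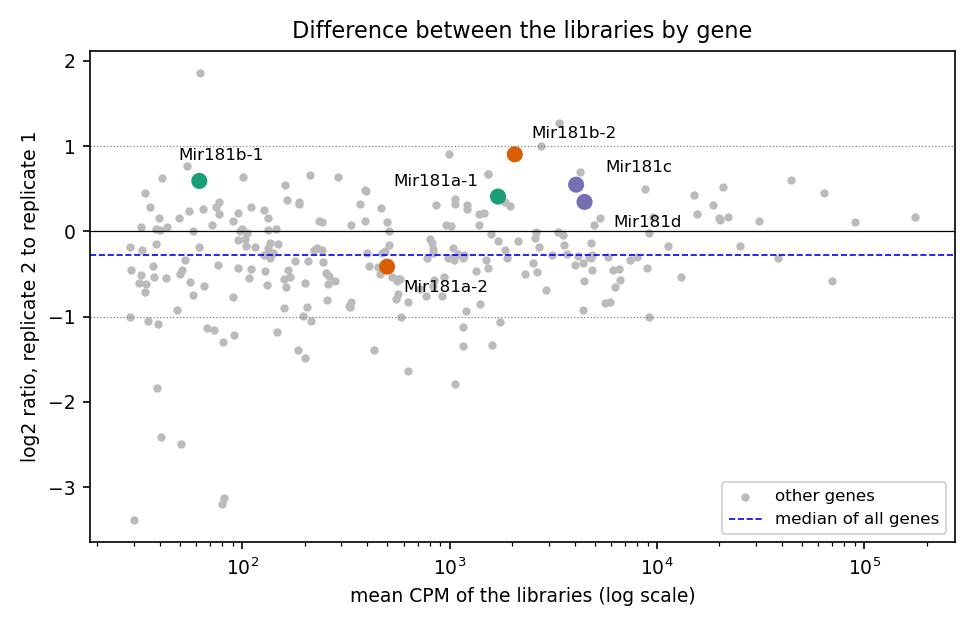
Log2 ratio of replicate 2 to replicate 1 (vertical axis) against mean CPM (horizontal log axis) for the 250 genes that averaged 100 or more counts, with the Mir181 genes coloured by cluster, dotted lines at 2-fold and a dashed line at the median of all genes, -0.27. Of the Mir181 genes, Mir181b-2 is the highest at 0.90 and Mir181a-2 is alone below 0, at -0.41.

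Only the chromosome 8 cluster had other genes of the tables within 50 kb. Mir23a, Mir27a and Mir24-2 form a cluster on the opposite strand, which starts 29557 bases from Mir181c/d and is known from vessels and blood cells. Mir23a had 5296 CPM in replicate 1 and 4260 CPM in replicate 2, with a mean of 4778 ± 732 CPM (SD, n = 2), a level close to those of Mir181c and Mir181d. It was above both in replicate 1 and below both in replicate 2, with a log2 ratio between the libraries of -0.31 (-0.34 to -0.28). Mir27a had 104 ± 8.98 CPM, and Mir24-2, whose mature sequence is also encoded at Mir24-1, had 95.3 ± 10.4 CPM. Gm25110 had no count in either library, which allows up to 0.838 and 0.839 CPM by the limit of 3 counts.

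The genes next to each member in mean CPM were named by a rule of level alone. Mir181d lay between Mir296 (4694 ± 680 CPM) and Mir615 (4443 ± 1243), and Mir181c between Mir127 (4161 ± 593) and Mir541 (4025 ± 778). Mir181b-2 lay between Mir361 (2132 ± 116) and Mir196a-2, and Mir181a-1 between Mir101b (1716 ± 99.2) and Mir302a (1597 ± 975). Mir181a-2 lay between Mir450b (501 ± 27.6) and the leukocyte gene Mir155 (490 ± 53.8), and Mir181b-1 between the muscle gene Mir206 (62.3 ± 50.2) and Mir219a-1 (61.7 ± 5.47, all SD, n = 2). Mean log2 CPM over the 2 libraries differed by at most 0.25 in size between a member and these neighbours. Of these 12 neighbours, 9 were lower and 3 higher in replicate 2, beside 167 lower and 83 higher among the 250 genes that averaged 100 or more counts.

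Leukocyte, muscle and neural markers had lower levels than the family itself. The leukocyte list totalled 756 CPM in replicate 1 and 628 CPM in replicate 2, with 3 of 4 measured genes detected, led by Mir155 and by Mir223 at 180 ± 30.04 CPM. The family stood above this total by 3.83 and 4.58 on the log2 scale. The skeletal and heart muscle list totalled 84.0 and 133 CPM, with 4 of 5 genes detected, and the family stood above it by 6.997 and 6.81. The neural list totalled 364 and 356 CPM, with 5 of 10 measured genes detected and Mir124a-1, Mir124a-2 and Mir124a-3 at 0, but most of its genes are encoded at several loci and lose reads in the same way. No marker of these 3 lists stood above Mir181a-1, Mir181b-2, Mir181c or Mir181d in mean CPM. In tissue of mixed cell types, fewer cells of a type and less RNA per cell cannot be told apart, and the cells that express each Mir181 gene were not measured.

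The totals of the epithelial and mesenchymal lists and the 1 endothelial gene were close to or above the family's total. No single epithelial gene was close to it, the highest being Mir205 at 4810 ± 316 CPM (SD, n = 2). The endothelial gene Mir126a, which marks vessels, had 26707 and 23683 CPM, above the family in both libraries, and the epithelial list had 12334 and 10775 CPM with 7 of 7 genes detected. The family lay below the epithelial list in replicate 1 (log2 ratio -0.20) and above it in replicate 2 (0.48), and below the mesenchymal list in both (-1.17 and -0.94). Between the libraries, the mesenchymal list had a log2 ratio of 0.25, the endothelial gene -0.17, the epithelial list -0.19, the Hox cluster list -0.14, the leukocyte list -0.27, the neural list -0.03, the erythroid list -0.84 and the muscle list 0.66, beside 0.48 for the family. These are ratios of list totals, and members of the Hox cluster, epithelial and mesenchymal lists went both ways. Mir10b had a log2 ratio of -0.58 and Mir196b 0.46, and Mir429 had -0.47 and Mir203 0.67. Most of the mesenchymal total came from Mir214, at 18552 CPM. Within the muscle list, Mir206 went from 96 counts in replicate 1 to 350 in replicate 2. Mir208b went from 138 to 68 and Mir208a from 41 to 24. The part of these lists in the family's ratio was not tested.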

How the data were processed

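Small RNA of limb tissue was counted in 2 libraries of 1 group. The authors deposited raw counts per miRNA gene, 1 table per library, and per the readme texts deposited with them reads were aligned to mm10 and counted over GENCODE M4 without pooling. How the reads were trimmed, aligned and assigned to genes is not given in the sources used here. The 3 count columns (both strands, sense, antisense) sum with the rows of reads given to no gene to the same total. That genes hold uniquely placed reads was inferred from this layout. Those rows (unmapped 32.3% and 18.6%, multimapping 21.9% and 25.4%, outside genes 10.3% and 6.46% of 10064833 and 7218612 reads) were left out of library sizes.

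Symbols came from GENCODE M21 (GRCm38), with 1894 identifiers matched and 79 not. Sequences came from RefSeq for GRCm38.p6, where 6 members had mature arms and 5 a hairpin (not Mir181c). CPM are sense counts per 1000000 sense counts in genes. Ratios carry a prior count of 1, and intervals are 95%, exact binomial for ratios and exact Poisson for counts. They cover counting error only and treat reads as independent, so they are too narrow where reads are PCR copies of 1 molecule. Scaling alternatives were edgeR 4.0.16 (TMM) and DESeq2 1.42.0 size factors under R 4.3.3, with Python 3.11.15 for the rest. The ratio intervals were tested on simulated data. The simulated counts were Poisson draws, as the intervals assume, without PCR copies or differences between pools. That test therefore could not show how the intervals behave with either.

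Genes named are the 6 members, the table genes within 50 kb of them, the genes next to each in mean CPM, up to 4 other loci of 2-locus miRNAs and up to 3 members of each marker list. The members and lists were chosen with earlier results of these data known.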

Additional observations from a re-analysis of the deposited data

How the results depend on the processing

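Levels of the Mir181 genes and clusters moved by less than 1 SD of the 2 libraries under TMM, DESeq2 size factors, scaling to uniquely placed reads and the both-strand column. The largest moves came with scaling to uniquely placed reads, as for Mir181d, from 4471 to 3742 CPM against an SD of 754. Ratios within a library moved by less than 1 SD with prior counts of 0.5 and 5. Scaling could not change these ratios, because it cancels within a library. Nor could the both-strand column, because no antisense count was found at these genes. Leaving out a library reversed the ratio of Mir181b to Mir181a loci, which ranged from -0.46 to 0.21. Log2 ratios between the libraries moved upward by construction with TMM, to 0.70 for Mir181a-1/b-1, 0.92 for Mir181a-2/b-2 and 0.72 for Mir181c/d, and to 0.69, 0.91 and 0.71 with DESeq2. None of the members changed sign, and with TMM 1 Mir181 gene, Mir181b-2, in place of 0 lay past 2-fold. Genes past 2-fold numbered 54 at 10 counts on average and 206 with no filter beyond 1 count, against 27 of 250. More genes are compared as the filter loosens, so these counts do not give shares. Genes with at least 1 count in both libraries numbered 564, against 348 at 10. With 1 mismatch allowed among the Mir181 hairpins, the 5p arm of Mir181d was told apart at 26 bases in place of 15, those of Mir181b at 26 in place of 25, and those of Mir181a at no length up to 30. The 3p arms of Mir181b were told apart at 22 in place of 15, those of Mir181a-1 and Mir181c at 19 in place of 16, and that of Mir181a-2 at 16 in place of 15. No paired analysis was possible because there was 1 group. Mir181b-1 had the fewest counts of the 6 genes and the widest counting interval for the log2 ratio between the libraries. How many reads of Mir181a and Mir181b were lost to placement at several loci was not measured.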
